A study of Mus musculus with 22 samples.

Results

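Potassium channel genes, taken as the autosomal protein-coding genes whose GENCODE release M 21 symbol begins with Kcn apart from the Kcnip and Kcnd genes, numbered 86 of the 20807 autosomal protein-coding genes with a value. Of 99 symbols that begin with Kcn, 94 were protein-coding, of which 2 lay on X or Y, 4 were Kcnip and 2 were autosomal Kcnd genes. The members were 27 voltage-gated pore-forming genes (Kcna, Kcnb, Kcnc, Kcnh, Kcnq), 10 silent modifiers (Kcnf, Kcng, Kcns, Kcnv) and 8 genes classed as ion-activated (Kcnma, Kcnn, Kcnt, Kcnu). The others were 15 inward rectifiers (Kcnj), 14 K2P leak channel genes (Kcnk) and 12 auxiliary subunits (Kcnab, Kcne, Kcnmb, Kcnrg). By length, 36 were under 20 kb, 31 from 20 to 100 kb and 19 of 100 kb or more. The samples were cortex, olfactory bulb and cerebellum of C57BL/6 mice at 8 weeks of age, female by the study's methods, with replicates from independent mice and no treatment or genetic change in any group. Whether both assays used the same mice is not stated. Cortex was the whole cerebral cortex without the hippocampus, and cerebellum and olfactory bulb were taken whole, so each tissue is a mixture of neurons and glia.

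Potassium channels let potassium leave or enter the cell along its gradient, and so set the resting potential, the width of the action potential and the rate of firing. Voltage-gated channels open on depolarization, and most of the ion-activated channels open with calcium or sodium inside the cell. Inward rectifiers and K2P channels hold the resting potential, and auxiliary subunits change the gating or the trafficking of the pore. In DNA of the brain, 5-methylcytosine (5mC) at CpG sites can be oxidized by TET enzymes to 5-hydroxymethylcytosine (5hmC), which is abundant in neurons and in gene bodies.

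TAB-seq (only 5hmC reads as C) was done on 3 mice per tissue, and oxBS-seq (only 5mC reads as C) on 3 for cortex and 2 each for cerebellum and olfactory bulb. The deposited value is the level of a bin as a fraction from 0 to 1, in bins of 100 kb for 5mC and of 1 Mb for 5hmC, without coverage, so the depth behind a level is unknown and the SD between libraries is the error given. The level of a gene was the mean of the bins that overlap it. These bins are wide beside the genes. At the median, a member covered 21.3% of its 5mC bins and 2.66% of its 5hmC bins, and a level therefore describes the neighbourhood of a short gene more than the gene. No other protein-coding gene lay in the 100 kb bins of 23 members, and the median member shared them with 1 other gene (highest 14). The 86 members held 83 distinct sets of 5mC bins and 75 of 5hmC bins. Kcna1, Kcna5 and Kcna6 had one 5hmC value in common, as did Kcnc1 and Kcnj11, so each such value is 1 measurement.

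The promoters of 4 members with large 5mC differences between tissues are shown with their CpG sites, the bases that both assays read, in capitals. They are the 250 bases before the start of a RefSeq transcript in GRCm38.p6, 5′ to 3′ on the strand of the gene. Kcnj12 (strong inward rectifier; chr11:61065554-61065803, + strand) and Kcnc1 (Shaw-type channel of fast-spiking neurons; chr7:46396218-46396467, + strand) had the lowest 5mC in cerebellum. The window of Kcnc1 lies in the first bin of that gene, where cerebellum had the highest mean, and the fall was in the second bin. Kcna4 (A-type channel; chr2:107290339-107290588, + strand) and Kcnh5 (eag channel; chr12:75177333-75177582, - strand) had the lowest 5mC in olfactory bulb. None of these windows overlapped an exon of GENCODE, and that of Kcnj12 lay in an intron of the GENCODE gene.
Kcnj12: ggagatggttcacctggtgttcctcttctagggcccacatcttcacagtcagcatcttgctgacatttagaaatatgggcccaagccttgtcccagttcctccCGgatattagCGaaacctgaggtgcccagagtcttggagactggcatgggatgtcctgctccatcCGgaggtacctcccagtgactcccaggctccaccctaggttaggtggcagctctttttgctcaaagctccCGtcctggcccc
Kcnc1: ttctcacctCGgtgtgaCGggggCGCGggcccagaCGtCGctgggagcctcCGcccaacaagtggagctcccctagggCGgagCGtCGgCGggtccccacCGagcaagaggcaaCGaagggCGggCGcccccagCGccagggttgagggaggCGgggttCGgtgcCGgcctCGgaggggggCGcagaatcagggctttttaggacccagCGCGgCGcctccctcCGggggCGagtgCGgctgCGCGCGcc
Kcna4: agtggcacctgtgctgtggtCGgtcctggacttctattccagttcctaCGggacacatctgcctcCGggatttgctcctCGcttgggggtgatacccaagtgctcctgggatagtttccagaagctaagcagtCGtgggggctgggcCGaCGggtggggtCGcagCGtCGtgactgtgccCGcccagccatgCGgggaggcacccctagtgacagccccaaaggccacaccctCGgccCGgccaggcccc
Kcnh5: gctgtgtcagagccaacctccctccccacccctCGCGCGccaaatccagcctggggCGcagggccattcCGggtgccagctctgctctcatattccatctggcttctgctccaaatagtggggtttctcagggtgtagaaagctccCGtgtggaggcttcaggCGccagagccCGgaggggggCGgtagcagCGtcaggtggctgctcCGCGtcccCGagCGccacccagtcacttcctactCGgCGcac
The motif searched was CG, which reads the same on both strands. Kcnj12 held 4 CpG sites in this window and 62.2% of all 32851 promoter windows held as many or more, against 30 sites for Kcnc1 (5.94% of windows), 14 for Kcna4 (29.4%) and 16 for Kcnh5 (25.4%). Over the 62 members with a window in the table (82 windows) the median was 8 sites and the range 0 to 43, against a median of 6 over all windows. At least 1 CpG site was in 96.3% of the members' windows and in 92.1% of all windows. The deposited bins do not resolve promoters, so no level is given for these windows alone.

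Over the 86 members, 5hmC was highest in cortex and lowest in cerebellum, and 5mC ran in the opposite order. The members averaged 0.181 ± 0.0101 for 5hmC in cortex, 0.162 ± 0.00447 in the olfactory bulb and 0.117 ± 0.00232 in the cerebellum (SD over 3 libraries each). For 5mC they averaged 0.600 ± 0.0138 in cortex (SD, 3 libraries), against 0.627 ± 0.00776 for olfactory bulb and 0.650 ± 0.0126 for cerebellum (SD, 2 libraries each). All autosomal protein-coding genes had the same order, with 0.166, 0.144 and 0.106 for 5hmC and 0.620, 0.650 and 0.663 for 5mC. In every library the members lay above all genes in 5hmC and below them in 5mC. The members' excess in 5hmC was 0.0150 ± 0.000587, 0.0179 ± 0.000242 and 0.0115 ± 7.6e-05 in cortex, olfactory bulb and cerebellum (SD, n = 3 each), and their difference in 5mC was -0.0200 ± 0.00244 (n = 3), -0.0236 ± 0.00231 (n = 2) and -0.0130 ± 0.00113 (n = 2). The excess in 5hmC did not hold at every length. Members of 100 kb or more averaged 0.181, 0.169 and 0.106, against 0.187, 0.168 and 0.116 for all genes of that length. Members under 20 kb averaged 0.173, 0.152 and 0.111, against 0.155, 0.132 and 0.0997 for all genes under 20 kb. The lower 5mC did not hold at every length either. In 5mC, members of 100 kb or more averaged 0.645, 0.673 and 0.727, against 0.643, 0.673 and 0.708 for all genes of that length. For those under 20 kb it was 0.584, 0.609 and 0.629, against 0.614, 0.644 and 0.648. With 5mC averaged into the 1 Mb bins, the median sum of the marks was 0.825, 0.829 and 0.815, and 5hmC was 22.7%, 20.2% and 15.9% of it (22.1%, 18.8% and 13.8% over all genes). In whole tissue, another mixture of cells and another level per cell cannot be told apart.

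The classes differed little in cortex and more in cerebellum. In cortex the mean 5mC of a class lay between 0.587 ± 0.0125 (voltage-gated) and 0.621 ± 0.00995 (silent modifiers; SD, n = 3). In cerebellum it lay between 0.606 ± 0.0131 (K2P) and 0.700 (silent modifiers; n = 2). K2P was the only class whose cerebellum mean was below its olfactory bulb mean, at 0.596 ± 0.0191, 0.621 ± 0.0102 and 0.606 ± 0.0131 in cortex, olfactory bulb and cerebellum. The cerebellum libraries of K2P overlapped those of both other tissues. Among the members, 5mC was highest at Kcnv2, a silent subunit (0.725, 0.766 and 0.815), and lowest at Kcnk4, a mechanosensitive leak channel (0.335, 0.344 and 0.349). Kcnk4 had 22.5 CpG sites per kb of its bins, the most of any member. Across the members, 5mC was lower where CpG sites were denser (Pearson's r = -0.66, -0.62 and -0.72, n = 86), as it was across all genes (-0.74, -0.73 and -0.73, n = 20775). These correlations are across genes, which are not independent replicates and share libraries and some bins.

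Tissue and library facts bear on these values as follows. Libraries of one tissue correlated across genes at r = 0.995 to 0.998 for 5hmC and 0.959 to 0.985 for 5mC, and libraries of different tissues at 0.817 to 0.958 and 0.885 to 0.956. Cortex oxBS-seq replicate 3 stood apart, with a mean over all genes of 0.603 against 0.626 and 0.631. All 6 cerebellar granule neuron markers had lower 5mC in cerebellum than in cortex relative to the median gene (median log2 difference -0.73), as had 25.3% of all genes (14.6% were higher). In the levels as deposited only 3 of the 6 (Cbln1, Neurod1 and Zic2) were called lower and 0 higher. Gabra6 was at 0.698 in cortex and 0.706 in cerebellum. Of 6 markers of cortical excitatory neurons, 5 were higher in cerebellum than in cortex and 1 was lower. Of 6 markers of olfactory bulb interneurons and mitral cells, 3 (Tshz1, Dlx1 and Dlx2) were lower in olfactory bulb than in cortex and none was higher, with 5mC of Tshz1 at 0.567, 0.220 and 0.582 in cortex, olfactory bulb and cerebellum. Dlx1 and Dlx2 lie in the same bin and are 1 measurement. Over all genes, 3.75% were higher and 4.82% lower in olfactory bulb than in cortex relative to the median gene. Of 6 oligodendrocyte markers, 1 was higher and 1 lower in cerebellum than in cortex, and of 6 astrocyte markers, 3 were higher and none was lower. The part of cell mixture in the results for the potassium channel genes was not tested.

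The limma fit used log2(level/(1 - level)) over all autosomal protein-coding genes with Benjamini-Hochberg adjustment, and a gene was called at an adjusted p under 0.05. For the levels as deposited, 85 of 86 members were lower in 5hmC in cerebellum than in cortex and 0 were higher, where 98.4% and 0.125% of all genes were called. Between cerebellum and olfactory bulb, 72 were lower and 1 was higher (88.1% and 1.05% of all genes), and between olfactory bulb and cortex 63 were lower and 2 higher (77.6% and 1.12%). For 5mC, 53 members were higher and 8 lower in cerebellum than in cortex (57.6% and 4.1% of all genes). Between cerebellum and olfactory bulb, 30 were higher and 10 lower (18.9% and 7.49%), and between olfactory bulb and cortex 26 were higher and 1, Kcnj3, was lower (27.9% and 0.915%). Leaving out cortex oxBS-seq replicate 3 brought the 27 calls of 5mC between olfactory bulb and cortex to 24 (19 higher, 5 lower), while they fell to 4 without olfactory bulb replicate 1, 11 without olfactory bulb replicate 2 and 18 without cortex replicate 1. The 40 calls between cerebellum and olfactory bulb fell to 26 without cerebellum oxBS-seq replicate 1. The median gene itself shifted by -0.26, -0.76 and -0.49 on the log2 scale for 5hmC (olfactory bulb minus cortex, cerebellum minus cortex and cerebellum minus olfactory bulb) and by 0.20, 0.30 and 0.09 for 5mC. All differences of single genes that follow are therefore relative, with each library first centred on its median gene, and are written as log2 differences with their standard error (SE). Where 3 levels are given without a tissue they are the means of cortex, olfactory bulb and cerebellum in that order, and gene positions are in mm10.

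On the relative scale, 24 members were higher and 19 lower in 5mC in cerebellum than in cortex (14.6% and 25.3% of all genes). Against olfactory bulb, 25 were higher and 19 lower in cerebellum (13.2% and 21.7%). Olfactory bulb against cortex gave 7 higher and 12 lower (3.75% and 4.82%), and 13 in all without cortex replicate 3, 8 without olfactory bulb replicate 1 and 7 without olfactory bulb replicate 2. For relative 5hmC, 47 were higher and 30 lower in cerebellum than in cortex (47.2% and 40.0% of all genes), 45 higher and 38 lower in cerebellum than in olfactory bulb (47.7% and 39.0%), and 47 higher and 18 lower in olfactory bulb than in cortex (35.5% and 34.2%). When each set of identical bins entered the centring and the fit once, and each of the 86 members took the result of its own set, the last 2 splits became 53 higher and 26 lower, and 27 higher and 24 lower. The shares of all genes above belong to the main fit and were not set beside these counts. The splits of relative 5hmC thus depend on the centring and are not read as a trait of the members. These comparisons share libraries of a tissue pair by pair, so they are not independent of each other.

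**Figure D1:**
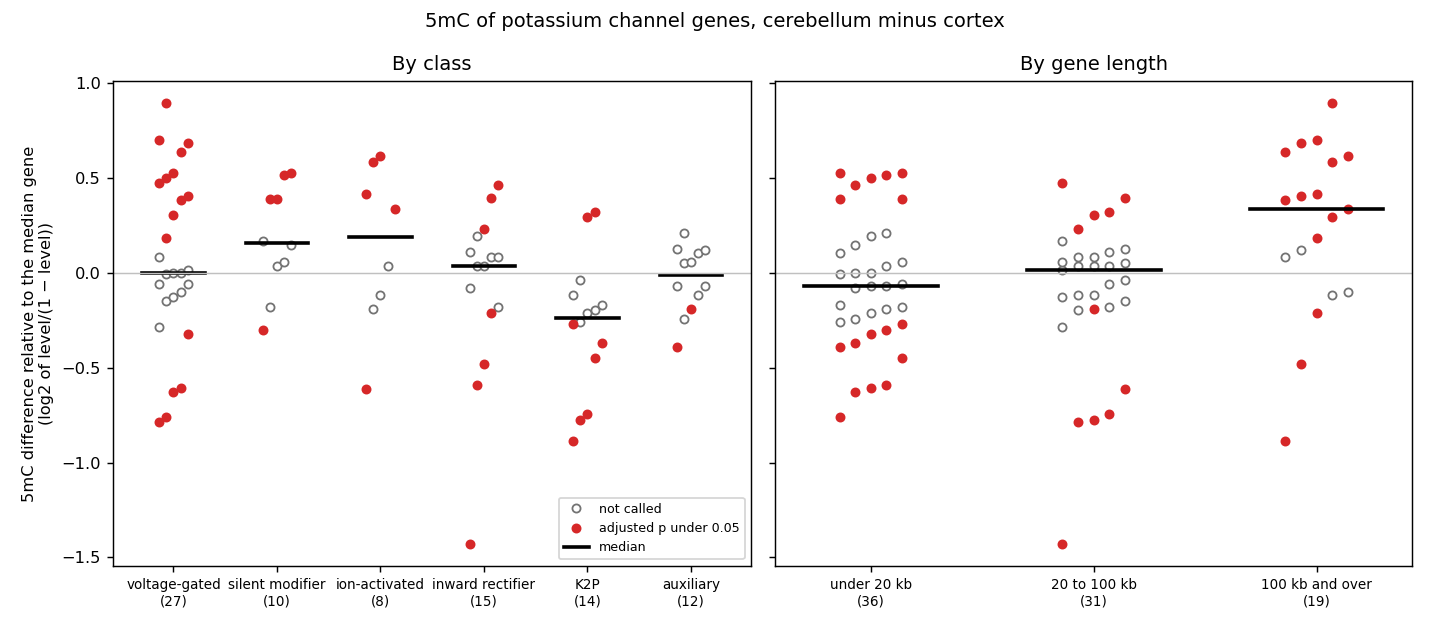
Relative 5mC difference of each of the 86 members between cerebellum and cortex (log2 scale, y axis), by class and by gene length (x axes), with red points for members at an adjusted p under 0.05 and a bar for the median. Of the 19 members of 100 kb or more, 12 were higher and 3 lower in cerebellum, and the K2P class had the lowest median, -0.24.

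By class, 11 voltage-gated members were higher and 5 lower in relative 5mC in cerebellum than in cortex, where 14.6% and 25.3% of all genes were called. In the same comparison 4 silent modifiers were higher and 1 lower, and 4 ion-activated members were higher and 1 lower. Among inward rectifiers 3 were higher and 4 lower, among K2P members 2 were higher and 6 lower, and among auxiliary subunits 0 were higher and 2 lower. The median relative difference was 0.16 for silent modifiers, 0.19 for ion-activated members, 0.04 for inward rectifiers and -0.24 for K2P members, against -0.05 over all genes. The plot of relative 5mC differences by class and length shows members of every class on both sides of 0.

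Among the Shaker genes, whose products are fast delayed rectifiers of axons, Kcna1 and Kcna5 had their lowest 5mC in cerebellum and the neighbouring Kcna6 did not. The 5mC level of Kcna1 (chr6:126640397-126646384) was 0.570, 0.560 and 0.571 in the cortex libraries, 0.629 and 0.599 in olfactory bulb, and 0.539 and 0.501 in cerebellum. Its cerebellum libraries lay below all others, and its relative difference from cortex was -0.63 (SE 0.0857, limma adjusted p = 0.000353). Kcna5, 105 kb away, was at 0.614, 0.625 and 0.545 in cortex, olfactory bulb and cerebellum, with a difference of -0.76 (SE 0.072, limma adjusted p = 5.88e-05). Kcna6, 61.9 kb on the other side of Kcna1, was at 0.552, 0.665 and 0.660, with cortex lowest. It was 0.48 higher in olfactory bulb than in cortex (SE 0.0965, limma adjusted p = 0.0143), a call that was lost without olfactory bulb oxBS-seq replicate 1 (0.0522) or 2 (0.0907). Kcna2 was at 0.545, 0.601 and 0.605, and its relative 5mC passed the test in none of the 3 comparisons.

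Kcna4, the A-type channel of the Shaker genes, had the opposite pattern to Kcna1, with olfactory bulb lowest and cerebellum highest. Its 5mC (chr2:107290639-107298502) was 0.638, 0.659 and 0.609 in cortex, 0.584 and 0.601 in olfactory bulb, and 0.765 and 0.760 in cerebellum. The 3 tissues were fully separate. The relative difference was -0.47 between olfactory bulb and cortex (SE 0.0752, limma adjusted p = 0.00492) and 1.00 between cerebellum and olfactory bulb (SE 0.0824, limma adjusted p = 2.33e-05). Its 5hmC was 0.147, 0.160 and 0.144 in cortex, 0.150, 0.161 and 0.153 in olfactory bulb, and 0.0516, 0.0501 and 0.0518 in cerebellum. The cerebellum libraries lay far below all others, which overlapped each other, and the relative 5hmC difference from olfactory bulb was -1.23 (SE 0.0195, limma adjusted p = 1.82e-10).

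Kcnb2, a Shab gene and delayed rectifier of the soma and dendrites, was lowest in olfactory bulb and highest in cerebellum. Its 5mC level (chr1:15287254-15723750) was 0.689, 0.694 and 0.657 in cortex, 0.647 and 0.644 in olfactory bulb, and 0.785 and 0.780 in cerebellum. Its olfactory bulb libraries lay below every cortex library. The relative difference was -0.43 between olfactory bulb and cortex (SE 0.0659, limma adjusted p = 0.00396). Kcnb2 was also the only member whose olfactory bulb libraries all lay above every other library in 5hmC, at 0.168 ± 0.00881, 0.187 ± 0.0039 and 0.105 ± 0.00212 in cortex, olfactory bulb and cerebellum (SD, n = 3 each), as was the case for 1.06% of all genes.

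Of the Shaw genes, which repolarize fast-spiking neurons, Kcnc1 was lowest in cerebellum in 5mC and Kcnc2 was highest there. Kcnc1 (chr7:46396497-46438704) was at 0.599, 0.583 and 0.580 in cortex, 0.609 and 0.595 in olfactory bulb, and 0.526 and 0.502 in cerebellum. The cerebellum libraries stood clear of the rest, with a relative difference of -0.78 from cortex (SE 0.0723, limma adjusted p = 5.33e-05). Its 5hmC value, shared with Kcnj11, was 0.185, 0.195 and 0.173 in cortex, 0.165, 0.167 and 0.160 in olfactory bulb, and 0.160, 0.159 and 0.166 in cerebellum. Cerebellum overlapped olfactory bulb here while the median gene fell, so relative 5hmC was 0.57 higher than in cortex (SE 0.0214, limma adjusted p = 4.95e-09). Kcnc2 (chr10:112271121-112467024) had 5hmC of 0.145, 0.140 and 0.0476 (cortex, olfactory bulb, cerebellum) and 5mC of 0.671, 0.694 and 0.773. Its relative 5mC was 0.38 higher in cerebellum than in cortex (limma adjusted p = 0.00219) with all its bins, but -0.09 in the only bin that lay wholly inside the gene.

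The eag, erg and elk genes (Kcnh), which shape repolarization and excitability, held the largest rises of 5mC in cerebellum. Kcnh7, an erg channel of 491 kb (chr2:62693414-63184287), was at 0.639, 0.621 and 0.614 in cortex, 0.686 and 0.673 in olfactory bulb, and 0.803 and 0.793 in cerebellum. The tissues did not overlap, and the relative difference between cerebellum and cortex, 0.90 (SE 0.0717, limma adjusted p = 2.65e-05), was the largest rise of any member. Kcnh5, an eag channel (chr12:74897220-75177332), was at 0.673, 0.658 and 0.654 in cortex, 0.621 and 0.628 in olfactory bulb, and 0.813 and 0.792 in cerebellum. Cerebellum was 1.14 above olfactory bulb on the relative scale (SE 0.0829, limma adjusted p = 1.06e-05). The 5hmC level of Kcnh5 fell from 0.201 in olfactory bulb to 0.0957 in cerebellum, and that of Kcnh7 from 0.169 to 0.0812. Kcnh8, an elk channel, had the lowest 5hmC of the class after Kcna4 and Kcnc2, at 0.0524 in cerebellum against 0.143 in cortex. Kcnh1 did not pass the test of relative 5mC in any comparison, and its relative 5hmC was 0.46 higher in cerebellum than in cortex (SE 0.0167, limma adjusted p = 4.24e-09).

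Among the Kcnq genes, Kcnq3 and Kcnq5 contribute to the M-current, a slow brake on firing, and Kcnq1 is known for cardiac repolarization. Kcnq5 (chr1:21398403-21961942) was at 0.683, 0.678 and 0.651 in 5mC in cortex, 0.716 and 0.716 in olfactory bulb, and 0.813 and 0.801 in cerebellum, with a relative difference of 0.68 between cerebellum and cortex (SE 0.0657, limma adjusted p = 6.11e-05). Kcnq3 was at 0.608, 0.704 and 0.755, and rose by 0.64 (SE 0.0735, limma adjusted p = 0.000142). In both genes the tissues were ordered cortex, olfactory bulb, cerebellum with no overlap of libraries. Kcnq1 did not pass the relative 5mC test in any comparison.

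The silent modifiers do not form channels alone and assemble with Shab subunits. Kcnf1 had the tissue order of Kcnb2, at 0.590, 0.604 and 0.587 in cortex, 0.559 and 0.562 in olfactory bulb, and 0.742 and 0.717 in cerebellum. The order had no overlap, and cerebellum was 0.93 above olfactory bulb (SE 0.0763, limma adjusted p = 2.17e-05). Its difference between olfactory bulb and cortex, -0.41 (limma adjusted p = 0.00688), was not called without olfactory bulb oxBS-seq replicate 1 (0.056). Kcns1 was at 0.585, 0.670 and 0.702, and Kcnv1, at 0.108, 0.0988 and 0.0488, had the lowest 5hmC of all members in cortex and olfactory bulb. Kcns3 had no relative 5mC call, and its relative 5hmC was the lowest of the members in olfactory bulb against cortex (-0.26, SE 0.0346, limma adjusted p = 0.000136).

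The ion-activated genes, most of which couple potassium efflux to calcium or sodium entry, differed in their tissue order. Kcnma1, the BK channel of 725 kb (chr14:23289431-24014491), had 5mC of 0.613, 0.629 and 0.616 in cortex, 0.679 and 0.689 in olfactory bulb, and 0.765 and 0.750 in cerebellum, with a relative difference of 0.59 between cerebellum and cortex (SE 0.0736, limma adjusted p = 0.00022). Kcnn2, an SK channel, was at 0.658, 0.662 and 0.767. Kcnt1 and Kcnt2, both sodium-activated channels, went in opposite directions. Kcnt1 was at 0.604, 0.632 and 0.607 in cortex, 0.632 and 0.620 in olfactory bulb, and 0.570 and 0.573 in cerebellum, and its relative 5mC fell by 0.61 from cortex (-0.61, SE 0.0743, limma adjusted p = 0.00019). Kcnt2 (chr1:140246158-140612067) was at 0.680, 0.753 and 0.806, and rose by 0.62 (SE 0.0659, limma adjusted p = 0.000101). The 5hmC level of Kcnt2 was 0.148, 0.166 and 0.143 in cortex, 0.110, 0.117 and 0.116 in olfactory bulb, and 0.0389, 0.0435 and 0.0447 in cerebellum. That was the lowest cerebellum level and the largest relative fall of any member (-1.23, SE 0.046, limma adjusted p = 4.75e-09).

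Among inward rectifiers, Kcnj12 showed the largest difference of any member in either direction. Kcnj12 (chr11:61022564-61071131) lies in a single 100 kb bin with no other protein-coding gene, and its 5mC level was 0.631, 0.635 and 0.628 in cortex, 0.643 and 0.646 in olfactory bulb, and 0.441 and 0.456 in cerebellum. Cerebellum lay far below the other libraries, which spanned 0.628 to 0.646. The relative difference was -1.43 from cortex (SE 0.081, limma adjusted p = 4.05e-06) and -1.30 from olfactory bulb (SE 0.0887, limma adjusted p = 8.62e-06). Kcnj11, the pore of the ATP-sensitive channel, was also lowest in cerebellum, at 0.672, 0.724 and 0.635. Kcnj10, the main inward rectifier of astrocytes, was at 0.435, 0.502 and 0.502 with no relative 5mC call, and it shares its bins with Kcnj9.

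The G-protein-gated rectifiers Kcnj3 and Kcnj6, opened by inhibitory receptors, differed from each other. Kcnj3 (chr2:55435970-55598145), alone in its bins, was at 0.608, 0.620 and 0.590 in cortex, 0.528 and 0.528 in olfactory bulb, and 0.638 and 0.620 in cerebellum. Olfactory bulb was below all other libraries, and cortex and cerebellum touched at 0.620. The relative difference of olfactory bulb from cortex was -0.67 (SE 0.0631, limma adjusted p = 0.00031), the largest fall of the members in that comparison. Cerebellum was 0.21 below cortex on the relative scale (limma adjusted p = 0.0219), a call lost without either cerebellum library (0.12 and 0.109). Kcnj6 was at 0.600, 0.628 and 0.579 in 5mC, with a relative difference of -0.48 between cerebellum and cortex (SE 0.0727, limma adjusted p = 0.000629), and had the highest 5hmC of all members in cerebellum, 0.192 ± 0.00226 (SD, n = 3), against 0.208 ± 0.0111 in cortex.

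Of the K2P leak channels, which keep the membrane near its resting potential, Kcnk1, Kcnk10 and Kcnk12 had their lowest 5mC in cerebellum. Kcnk10 (chr12:98429437-98578310), alone in its bins, was at 0.621, 0.639 and 0.598 in cortex, 0.648 and 0.628 in olfactory bulb, and 0.547 and 0.511 in cerebellum. Cerebellum did not overlap the others, and the relative difference from cortex was -0.89 (SE 0.0672, limma adjusted p = 2.04e-05). Kcnk1 was at 0.608, 0.616 and 0.546 in cortex, 0.660 and 0.620 in olfactory bulb, and 0.529 and 0.507 in cerebellum. Its cortex replicate 3 came near the cerebellum libraries, and the relative differences were -0.78 from cortex (SE 0.0903, limma adjusted p = 0.000149) and -0.87 from olfactory bulb (SE 0.099, limma adjusted p = 0.000161). Kcnk13 lies 1.39 Mb from Kcnk10 and had the other order, at 0.651, 0.612 and 0.749, with olfactory bulb 0.46 below cortex (SE 0.0671, limma adjusted p = 0.00314). Kcnk13 also had the highest 5hmC of all members in cortex and in olfactory bulb, 0.225 in each.

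Of the 12 auxiliary subunits, 8 had higher 5mC in cerebellum than in cortex before centring and 0 had lower (57.6% and 4.1% of all genes). In relative 5mC 0 were higher and 2 lower in cerebellum than in cortex (14.6% and 25.3% of all genes). Against olfactory bulb, 2 were higher and 1 lower in cerebellum (13.2% and 21.7%). In olfactory bulb against cortex, 1 was higher and 2 were lower (3.75% and 4.82%). Kcnab1, the beta subunit of Shaker channels, was highest in olfactory bulb, at 0.622, 0.641 and 0.592 in cortex, 0.699 and 0.690 in olfactory bulb, and 0.656 and 0.658 in cerebellum. Relative to the median gene it was 0.39 lower in cerebellum than in olfactory bulb (SE 0.0773, limma adjusted p = 0.00322). Of the BK beta subunits, Kcnmb2 (0.694, 0.726 and 0.760) and Kcnmb4 (0.585, 0.639 and 0.663) had no relative 5mC call. The 5hmC levels of Kcnmb4 were 0.206, 0.198 and 0.185, and its relative 5hmC was 0.60 higher in cerebellum than in cortex (SE 0.0203, limma adjusted p = 2.95e-09).

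The levels of all libraries put the members in groups by the tissue that lay beyond both others, which is a description with no test. Cerebellum was lowest in 5mC for 10 members (11.6%, against 5.48% of all genes), among them Kcna1, Kcna5, Kcnc1, Kcnj11, Kcnj12, Kcnk1, Kcnk10, Kcnk12 and Kcnt1. Olfactory bulb was lowest for another 10 (against 2.06% of all genes), among them Kcna4, Kcnb2, Kcnf1, Kcnh5, Kcnj3, Kcnk13, Kcnab3, Kcnmb1 and Kcnn4. Cortex was lowest for 37 members (44.1% of all genes) and highest for 0 (0.308%). Cerebellum was highest for 44 (42.5%) and olfactory bulb for 13 (14.1%). The bins of the 10 members lowest in cerebellum held 10.2 to 17.9 CpG sites per kb, inside the range of 4.66 to 22.5 over all 86. For 5hmC, cortex was highest for 60 members (76.0% of all genes) and cerebellum lowest for 76 (90.1%), while cortex was lowest for 0 (0.0144%) and cerebellum highest for 0 (0.0721%). Kcna5, Kcnj11, Kcnk12, Kcnab3, Kcnmb1 and Kcnn4 are named because they fell in these groups, after their values were seen.

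**Figure D2:**
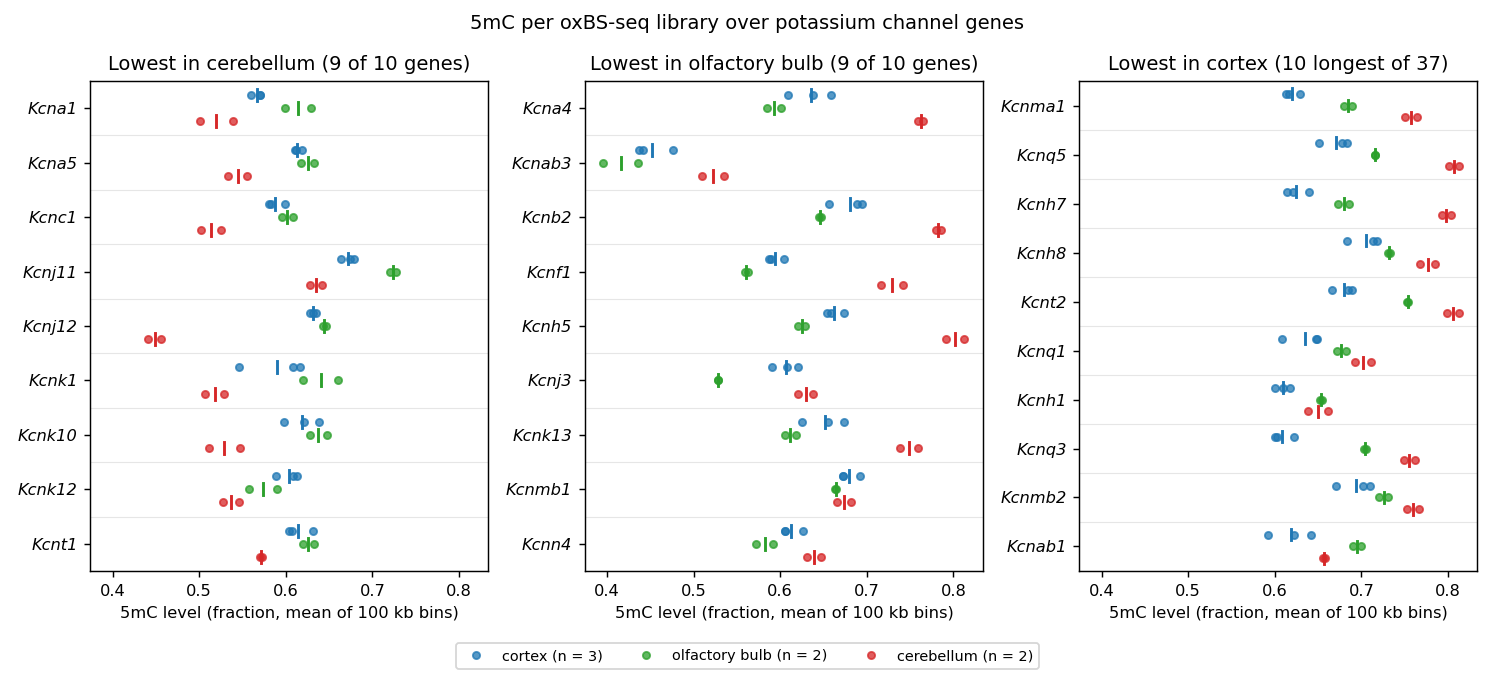
5mC level (fraction, x axis) of single oxBS-seq libraries (dots) and tissue means (bars) for 9 of the 10 members lowest in cerebellum, 9 of the 10 lowest in olfactory bulb and the 10 longest of the 37 lowest in cortex. Kcnj12 has the widest gap, with cerebellum at 0.441 and 0.456 and the other libraries from 0.628 to 0.646.

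Long members had higher 5mC in cerebellum. The 19 members of 100 kb or more averaged a 5mC of 0.645 ± 0.0151 in cortex (SD, n = 3), against 0.673 ± 0.00254 for olfactory bulb and 0.727 ± 0.011 for cerebellum (SD, n = 2 each), against 0.643, 0.673 and 0.708 for the 2371 genes of that length. On the relative scale 12 of 19 (63.2%) were higher and 3 lower in cerebellum than in cortex, where 39.1% and 15.0% of all long genes were called, with a median of 0.34 against 0.12. Against olfactory bulb it was again 12 higher and 3 lower (34.6% and 13.2% of all long genes). Kcnj3, Kcnj6 and Kcnk10 were the long members that were lower in cerebellum than in cortex, and Kcnab1, Kcnmb2, Kcnh1 and Kcnq1 were not called. The call of the long gene Kcnh8 (0.18, limma adjusted p = 0.0466) was lost without any single oxBS-seq library of cortex or cerebellum (adjusted p of 0.068 to 0.217), and in the bins wholly inside Kcnh8 the difference was -0.0639. For relative 5hmC, 5 long members were higher and 10 lower in cerebellum than in cortex (39.8% and 48.4% of all long genes), and 13 were higher and 4 lower in olfactory bulb than in cortex (51.6% and 21.5%). In cerebellum 5hmC was 11.8% of the sum of the marks at the median long member, against 13.8% at the median gene of that length. Across all 86 members, log10 of the length and the relative 5mC difference between cerebellum and cortex had r = 0.29 (n = 86), close to the 0.26 across all genes.

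**Figure D3:**
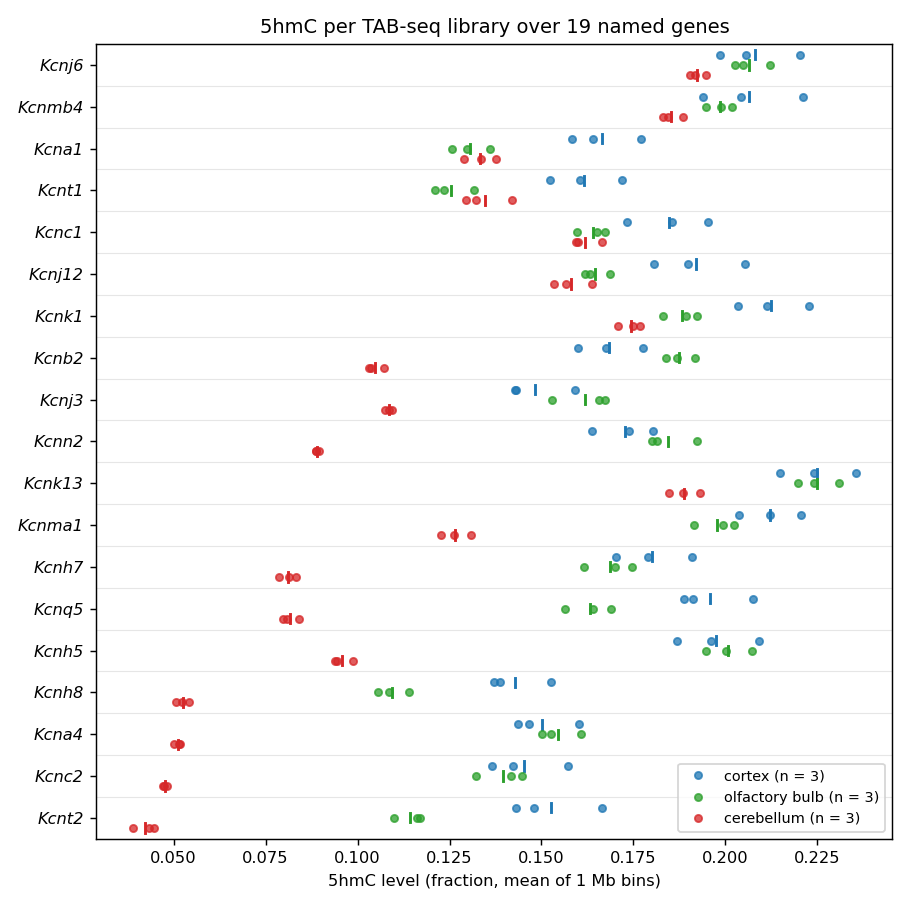
5hmC level (fraction, x axis) of 19 named members in each of the 9 TAB-seq libraries, with 1 dot per library coloured by tissue. Kcna4, Kcnc2 and Kcnt2 have cerebellum means of 0.0512, 0.0476 and 0.0423, while Kcnj6 and Kcnmb4 are at 0.192 and 0.185.

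Members called in both marks mostly had opposite directions, as had all genes. Between cerebellum and cortex, 15 members (against 8.93% of all genes) were higher in relative 5mC and lower in relative 5hmC (among them Kcna4, Kcnc2, Kcnh5, Kcnh7, Kcnq3, Kcnq5, Kcnma1, Kcnn2 and Kcnt2), and 16 (against 16.0% of all genes) were lower in 5mC and higher in 5hmC (among them Kcna1, Kcnc1, Kcnj12, Kcnj6, Kcnk1, Kcnk10 and Kcnt1). Both marks were higher for 5 members (among them Kcna3, Kcna6, Kcnj15 and Kcnk13) and lower for 2 (Kcnk16 and Kcnmb3), against 3.79% and 6.15% of all genes. The 5mC call of Kcna6 was lost without cortex oxBS-seq replicate 1 or 2 (limma adjusted p = 0.0863 and 0.08), and its 5hmC value is that of Kcna1. With 5mC in 1 Mb bins, Kcna6 was lower in cerebellum than in cortex (-0.12). Between cerebellum and olfactory bulb the counts were 19, 16, 5 and 3 in the same order (8.87%, 14.4%, 2.86% and 4.24% of all genes), and between olfactory bulb and cortex 3, 10, 2 and 0 (1.83%, 3.65%, 0.77% and 0.332%). All 10 members lowest in 5mC in cerebellum were higher in relative 5hmC there than in cortex, by 0.17 to 0.57 (47.2% of all genes were higher), in 8 distinct sets of 5hmC bins. Of the 10 lowest in olfactory bulb, 8 were higher in relative 5hmC there than in cortex and 0 were lower (35.5% and 34.2% of all genes).

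**Figure D4:**
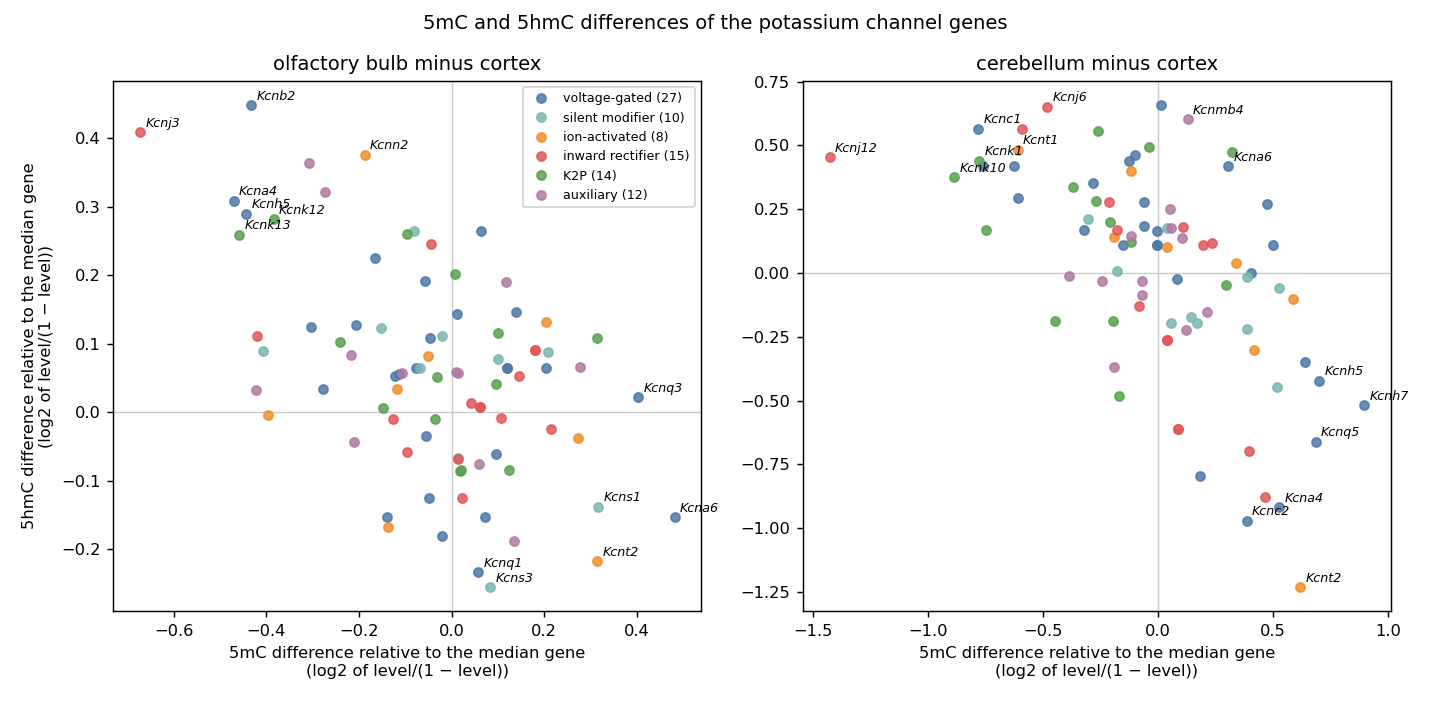
Relative 5mC difference (log2, x axis, 100 kb bins) against relative 5hmC difference (log2, y axis, 1 Mb bins) of the 86 members, for olfactory bulb minus cortex and cerebellum minus cortex, coloured by class. Most members that lie far from 0 are at the upper left and lower right, with Kcnj12 farthest left (-1.43) and Kcnt2 lowest (-1.23) in cerebellum.

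Across the 86 members the relative differences of the marks correlated at r = -0.50 (olfactory bulb minus cortex), -0.59 (cerebellum minus cortex) and -0.59 (cerebellum minus olfactory bulb), against -0.26, -0.26 and -0.38 across 20775 genes. These points share libraries, and 23 members share a 5hmC bin with another member. With 5mC averaged into the 1 Mb bins of 5hmC, r across the members was -0.64, -0.76 and -0.79. The correlation across all genes was not computed with 1 Mb bins for 5mC, so these values cannot be set beside those of all genes. At that bin size the 5mC difference of Kcnj12 from cortex was -0.33 (SE 0.0275, limma adjusted p = 2.4e-07) in place of -1.43, that of Kcnc1 was -0.43 (SE 0.0288, limma adjusted p = 2.91e-08), and that of Kcnk10 was -0.05 and not called (limma adjusted p = 0.124). Kcnk10 was 0.13 higher in cerebellum than in olfactory bulb at 1 Mb, where its own 100 kb bins were 0.79 lower. The relative 5mC difference between cerebellum and cortex changed sign at 1 Mb for Kcna6, Kcnf1, Kcnj3, Kcnk13 and Kcns1 as well. Between cerebellum and olfactory bulb it changed sign at 1 Mb for Kcnab1 (0.0458 in place of -0.39). For Kcnj12 and Kcnk10 the difference from cortex was thus larger in the 100 kb bins of the gene than across the surrounding 1 Mb.

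The bins of a gene were next compared with the 5 bins of 100 kb on each side in the same library, so that a shift of a whole library or region cancels. Gene bins had lower 5mC than their flanks for 66 members in cortex, for 60 in olfactory bulb and for 53 in cerebellum (76.7%, 69.8% and 61.6%, against 59.8%, 57.5% and 58.1% of all genes). Relative to the flanks, 22 members were higher and 18 lower in cerebellum than in cortex (12.2% and 12.3% of all genes). Against olfactory bulb 22 were higher and 19 lower in cerebellum (11.2% and 12.9%), and in olfactory bulb against cortex 6 were higher and 11 lower (3.56% and 2.84%). The 17 calls of olfactory bulb against cortex fell to 2 and 3 without olfactory bulb replicate 1 or 2 and to 6 and 9 without cortex replicate 1 or 2. Without cerebellum replicate 1 or 2, the 40 against cortex fell to 22 and 20 and the 41 against olfactory bulb to 26 and 25. Among long members 10 of 19 were higher and 4 lower in cerebellum than in cortex, where 25.9% and 16.3% of all long genes were called.

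**Figure D5:**
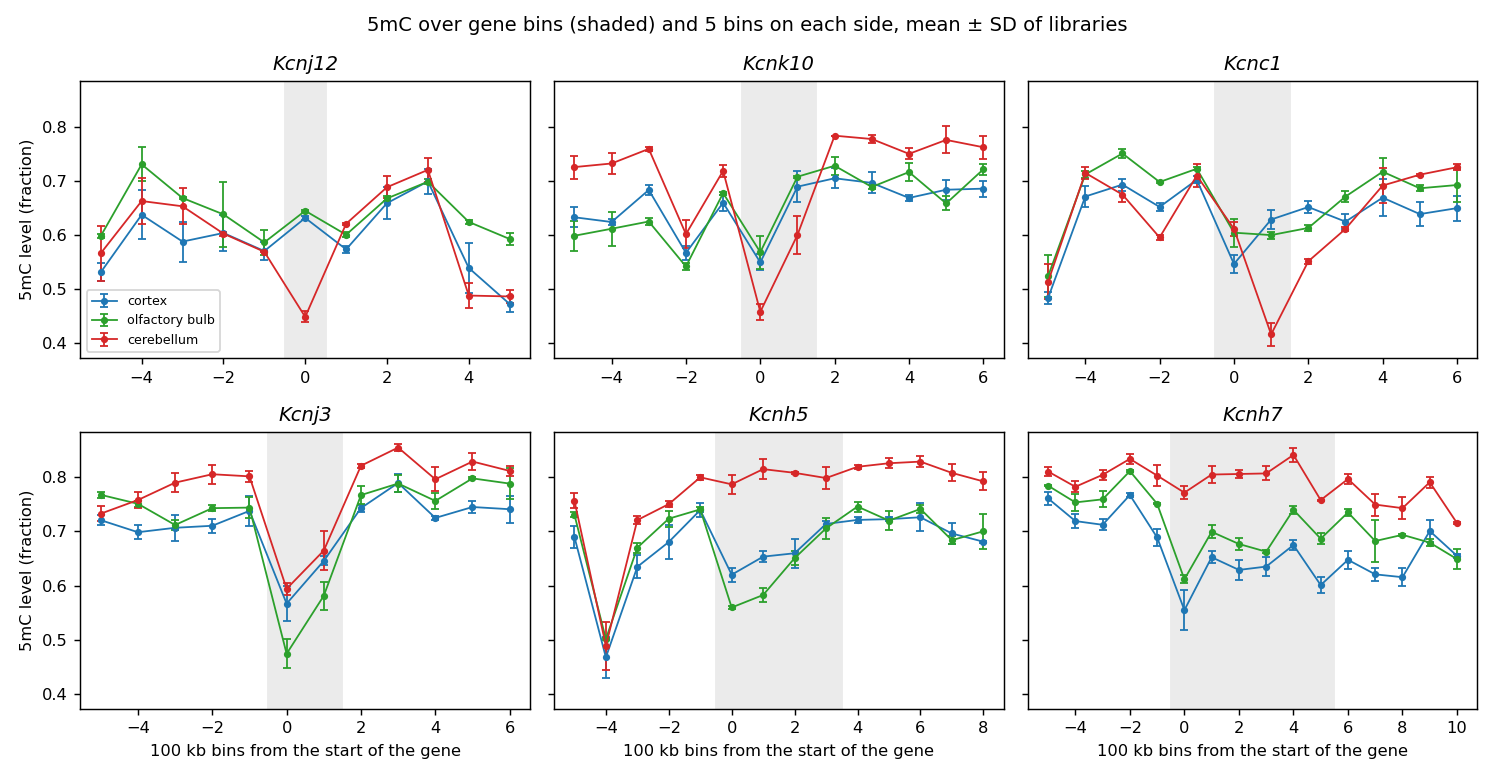
5mC level (fraction, y axis) in 100 kb bins across 6 members and their flanks by distance in bins from the gene (x axis), with the mean and SD of the libraries of each tissue and the bins of the gene shaded. Cerebellum drops to 0.449 in the bin of Kcnj12, olfactory bulb to 0.474 in the first bin of Kcnj3, and cerebellum lies above the others over the 6 bins of Kcnh7.

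The low 5mC of Kcnj12 in cerebellum was seen in its own bin and in neither neighbour. That bin was at 0.631, 0.645 and 0.449 in cortex, olfactory bulb and cerebellum, while the bin before it was at 0.570, 0.586 and 0.569 and the bin after it at 0.573, 0.600 and 0.621. Against its flanks Kcnj12 fell by 1.18 in cerebellum relative to cortex (-1.18, SE 0.0938, limma adjusted p = 2.18e-05). Kcnk10 was below its flanks by 0.209 in cerebellum (-0.209), against -0.041 in cortex and -0.019 in olfactory bulb, a difference of -1.07 on the log2 scale between cerebellum and cortex (SE 0.0699, limma adjusted p = 7.73e-06). In Kcnc1 the fall was in the second of its bins, at 0.629, 0.600 and 0.416, and not in the first, at 0.546, 0.604 and 0.611. That first bin holds only the start of the gene, and 3 other protein-coding genes lie in the bins of Kcnc1.

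In Kcnj3 both bins were lowest in olfactory bulb, at 0.567, 0.474 and 0.594 in the first and 0.646, 0.581 and 0.665 in the second. Its gene bins lay 0.234 below the flanks in olfactory bulb (-0.234), against -0.126 in cortex and -0.171 in cerebellum. Kcnh7 was below its flanks in cortex (-0.064) and olfactory bulb (-0.050) and above in cerebellum (0.015). The rise of Kcnh7 ran through the gene, since its 6 bins spanned 0.555 to 0.675 in cortex, 0.612 to 0.740 in olfactory bulb and 0.758 to 0.841 in cerebellum. The 4 bins of Kcnh5 spanned 0.620 to 0.714, 0.560 to 0.706 and 0.787 to 0.815. Kcnt1, called lower in cerebellum on the relative scale, was not called against its flanks (-0.17, SE 0.0743, limma adjusted p = 0.126).

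Other genes of potassium handling were counted beside the channels, in a list of 36 with the Hcn channels, the sodium pump, cation-chloride cotransporters, sulphonylurea receptors and channel partners. In relative 5mC, 10 were higher and 11 lower in cerebellum than in cortex (14.6% and 25.3% of all genes). Against olfactory bulb, 10 were higher and 9 lower in cerebellum (13.2% and 21.7%). In olfactory bulb against cortex, 1 was higher and 9 were lower (3.75% and 4.82%). In relative 5hmC the counts were 19 and 12 (47.2% and 40.0%), 15 and 13 (47.7% and 39.0%), and 17 and 10 (35.5% and 34.2%). Amigo1, a partner of the Shab channels, had 5mC of 0.526, 0.425 and 0.627, the same tissue order as Kcnb2. Abcc8, the sulphonylurea receptor that pairs with the Kcnj11 pore, was at 0.652, 0.698 and 0.595, but it lies beside Kcnj11 and its single bin is one of the bins of Kcnj11. Atp1b1, a subunit of the sodium pump, was at 0.577, 0.503 and 0.673.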

How the data were processed

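TAB-seq (5hmC, 9 libraries) and oxBS-seq (5mC, 7 libraries) of 3 mouse brain tissues were used. The authors aligned reads to mm10 with Bismark, called CpG sites with a binomial model, and deposited the 5hmC or 5mC level of each bin as a fraction. The Bismark version and how sites were combined into a bin are not given in the sources used here. Bismark and mm10 are also named in the submitters' processing notes. RNA-seq was not analysed here. The authors state an average sequencing depth per tissue. Without coverage per bin, the depth behind a level is unknown, and precision was judged from the SD between libraries.

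A bin with a level of exactly 0 or 1 in 1 or more libraries was dropped for that assay, and a gene's level was the mean of the remaining bins that overlap it (GENCODE M 21, mm10). Levels on the log2(level/(1 - level)) scale were fitted with limma 3.58.1 in R 4.3.3, in 1 model per assay holding the 3 tissues and all autosomal protein-coding genes (20807 for 5hmC, 20775 for 5mC and 20771 against the flanks), and Benjamini-Hochberg adjustment within a comparison. Relative values were centred on the median gene of each library. Because the values are fractions without reads, limma's p-values rest only on the spread between these libraries, which limma pools in part over all genes. For uncentred 5hmC the SE was the same for every member (0.0693), so those p-values do not measure a gene's own spread. The SE of uncentred 5mC against cortex ran only from 0.113 to 0.124. That of relative 5hmC ran from 0.0158 to 0.0485. Other steps used pandas 2.3.3 and numpy 2.4.6 under Python 3.11.15, and matplotlib 3.10.9 drew the plots. The fit was tested on simulated data.

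The members, classes, marker lists and the list of other potassium handling genes were chosen with earlier results of these data known. Genes named are 14 of well-known role (of which 3 are not reported here), all members of 200 kb or more, the 3 largest rises and 3 largest falls per mark and comparison among called members without overlap of libraries, and the members of highest and lowest level. The genes said to be named for their tissue order, the members listed by name in counts of called members, and the Kcnk16, Kcnmb3, Kcna3 and Kcnj15 genes are outside that rule. Replicate numbers of the labels and of the library names differ for oxBS-seq of olfactory bulb and cerebellum, and batches are not given. Alternatives were the fraction scale, limma's trend and robust options, all bins kept with levels limited to 0.001 to 0.999, bins weighted by gene bases, bins inside the gene, 1 Mb bins for 5mC, identical bins once, mean centring, 3 flanking bins, medians or distinct bins for mean levels, replicate blocks, and leaving out each library.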

Additional observations from a re-analysis of the deposited data

How the results depend on the processing

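The depth behind the level of a bin is unknown and 2 of the oxBS-seq tissues had 2 libraries, so the 5mC calls rest on few values. Of the counts of called members, those of 5mC depended most on the choices. In olfactory bulb against cortex, 5mC counts were 51 with 1 Mb bins and 11 with only bins inside the gene (possible for 16 members), against 27, and ranged from 4 to 32 when a library was left out. The relative 5mC count was 35 and 8 under these settings and 12 with the replicate block, against 19, and 7 to 15 without a library. With bins inside the gene the counts of the cerebellum were 14 against cortex and 15 against olfactory bulb, or 10 and 10 on the relative scale, where fewer genes have a value. Without a library, 5mC of cerebellum against olfactory bulb ranged from 26 to 45 members, and relative 5mC of cerebellum from 33 to 46 against cortex and 34 to 47 against olfactory bulb. Against the flanks the ranges were 2 to 16, 20 to 40 and 25 to 44, and the block with the numbers of the library names gave 7 in olfactory bulb against cortex. Relative 5hmC ranged from 52 to 65, 76 to 79 and 77 to 83, and 5hmC from 50 to 70, 84 to 86 and 72 to 78. The cause was not tested. With each bin counted once the mean 5mC difference of cerebellum was 0.0681 from cortex and 0.0395 from olfactory bulb, against 0.0506 and 0.0238.

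Libraries of different tissues with the same replicate number had correlations of deviations of -0.0315 to 0.428 for 5hmC and -0.13 to 0.0372 for 5mC. Pairs of different number were not set beside them, so this does not decide whether the numbers pair the samples. With 2 libraries per tissue the deviations mirror each other, and both pairs of olfactory bulb and cerebellum gave 0.0146 for 5mC. The main fit took the libraries as unpaired. Averaging 5mC into 1 Mb bins turned the sign of the uncentred log2 difference of Kcnj3 in olfactory bulb against cortex (0.0320), of Kcna1 (0.21), Kcnj12 (0.00510), Kcnk1 (0.23) and Kcnk10 (0.28) in cerebellum against cortex, and of Kcnk10 against olfactory bulb (0.28). It also turned the relative difference of Kcna6 (-0.12), Kcnf1 (-0.0452), Kcnj3 (0.15), Kcnk13 (-0.0419) and Kcns1 (-0.0640) against cortex and of Kcnab1 (0.0458) and Kcnk10 (0.13) against olfactory bulb. Bins inside the gene turned Kcnc2 (-0.0912) and Kcnh8 (-0.0639) against cortex and Kcnh8 (-0.0290) against olfactory bulb. For relative 5hmC in cerebellum, the fraction scale turned Kcnf1 (0.00161) and Kcnv1 (0.00694) against cortex and Kcna2 (-0.000973) and Kcnk10 (-0.000188) against olfactory bulb. Entering identical bins once turned Kcnf1 (0.0448) and Kcnma1 (0.00263) against cortex and Kcnf1 (0.000340) and Kcnj3 (0.0175) against olfactory bulb. Leaving out 1 library reversed no named gene.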

Other observations

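Cell type markers were also counted in 5hmC relative to the median gene. Between cerebellum and cortex, where 47.2% of all genes were called higher and 40.0% lower, relative 5hmC was higher for 5 and lower for 1 of the 6 cerebellar granule neuron markers (median log2 difference 0.64), higher for 2 and lower for 3 of the cortical excitatory markers, higher for 2 and lower for 4 of the olfactory bulb markers, higher for 5 and lower for 1 of the oligodendrocyte markers and higher for 3 and lower for 3 of the astrocyte markers. Slc1a2, the glutamate transporter of astrocytes, had 5mC of 0.537, 0.653 and 0.720 in cortex, olfactory bulb and cerebellum. That order was also the order of the mean over all genes (0.620, 0.650 and 0.663). The astrocyte markers Gfap, Aqp4 and Gja1 had it too, but Slc1a3 (0.628, 0.619 and 0.728) and Aldh1l1 (0.620, 0.684 and 0.669) did not. Dlx1 and Dlx2 lie in the same bin, as do Olig1 and Olig2, so each pair is 1 measurement that these counts enter as 2 genes.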
